A study of Mus musculus with 6 samples.

Results

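The genes of prostaglandin synthesis and prostaglandin E2 reception were described in a mouse dermal fibroblast line, in cells labelled Lap2alpha KO and in WT cells. The 10 genes were listed by symbol among the 28293 genes of the count tables: the cyclooxygenases Ptgs1 and Ptgs2, the prostaglandin E2 synthases Ptges, Ptges2 and Ptges3, the prostacyclin synthase Ptgis, the prostaglandin D2 synthase Ptgds, and the prostaglandin E2 receptors Ptger1, Ptger2 and Ptger4. A count row was matched for 9 of them, and Ptger2 was not analysed here. The set was drawn up with its KO and WT levels already known, chiefly the low Ptgs2 and the high Ptges of KO cells. The differences between KO and WT in these 10 genes are therefore given as a description, with no p-value.

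The study sequenced polyadenylated RNA from 3 KO and 3 WT libraries of cells grown in DMEM with fetal calf serum and antibiotics, a medium shared by both groups. LAP2alpha is a nucleoplasmic isoform of lamina-associated polypeptide 2 that binds A-type lamins, and it is encoded by Tmpo together with membrane-bound isoforms. The labels do not say whether a genotype was 1 clone or several, or whether replicates were separate cultures, so the p-values speak for library-to-library spread alone, and a difference between lines cannot be told apart from the loss of LAP2alpha. In bulk libraries fewer cells of a type and less RNA per cell cannot be told apart.

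The libraries held 22159339 to 27281473 counts. Tmpo, counted over all its isoforms, averaged 129 ± 6.81 CPM (CPM, raw counts divided by the library total and multiplied by 1000000) in KO, against 252 ± 2.65 CPM in WT (SD, n = 3 each). These counts do not separate the alpha isoform from the others. In edgeR's quasi-likelihood test over 15081 genes, 75.1% were called at an adjusted p under 0.05, with 37.7% of tested genes higher and 37.5% lower in KO, and the median log2 fold change, KO over WT, was 0.01. The 12 fibroblast markers summed to 24323 to 25808 CPM in KO and 7269 to 7942 CPM in WT. All 12 had counts, and 10 of the 12 were called higher and 1 lower in KO. The leukocyte gene Ptprc had 0 counts in KO and 1 count in WT, and the mast cell list, with counts for 2 of its 6 genes, summed to at most 0.0367 CPM in KO and 0.271 CPM in WT. The macrophage list, with counts for 4 of its 6 genes, summed to 9.24 to 10.9 CPM in KO and 3.57 to 4.63 CPM in WT, most of it Cd14 and Csf1r, both called higher in KO. The endothelial list summed to 4.5 to 4.64 CPM in KO and 1.54 to 1.94 CPM in WT, with Vwf called higher and Cdh5 lower in KO, and the melanocyte list to 0.367 to 0.905 CPM in KO and 1.17 to 2.98 CPM in WT. The keratinocyte list, with counts for 4 of its 6 genes, summed to 3.85 to 5.28 CPM in KO and 4.93 to 7.22 CPM in WT. Most of it was Krt10, called lower in KO. The adipocyte list, with counts for 3 of its 5 genes, summed to at most 0.272 CPM in KO and 0.271 CPM in WT. The part of these cell types in the results below was not tested. These marker genes, and Hpgds, Alox5, Il1a, Il6, Ptgdr2 and Tbxa2r below, were picked for mention after their values were seen.

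Prostaglandins are made from arachidonic acid, which phospholipases release from membranes. A cyclooxygenase, either the constitutive COX-1 of Ptgs1 or the inducible COX-2 of Ptgs2, turns it into prostaglandin H2, and terminal synthases turn that into prostaglandin E2, prostacyclin, prostaglandin D2 and others, which act on G protein-coupled receptors. In skin fibroblasts prostaglandin E2 is a main product, known for its part in inflammation and wound repair.

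Of the 9 genes with counts, 8 passed the low-count filter and Ptgds did not. Ptgs1, Ptges and Ptgis were called higher in KO, Ptgs2, Ptges3 and Ptger4 were called lower, and Ptges2 and Ptger1 were not called, so 6 of 8 were called beside 75.1% of all tested genes. For the same 6 genes no KO library lay within the WT range, beside 76.8% of all tested genes. Since the genes were chosen on this contrast, nothing is read from either count. The median log2 fold change of the 8 was 0.21.

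On GRCm38, with GENCODE M21 gene models, Ptgs1 (ENSMUSG00000047250) spans 36230426 to 36252272 of chromosome 2 on the plus strand, and Ptges2 (ENSMUSG00000026820) spans 32395896 to 32405772 of the same chromosome and strand. Ptgds (ENSMUSG00000015090) spans 25466709 to 25470046 of chromosome 2 on the minus strand. Ptges3 (ENSMUSG00000071072) lies at 128058954 to 128077272 of chromosome 10 and Ptger1 (ENSMUSG00000019464) at 83666678 to 83672753 of chromosome 8, both on the plus strand. Ptger4 (ENSMUSG00000039942) lies at 5206661 to 5244187 of chromosome 15 on the minus strand. The positions of Ptgs2 (ENSMUSG00000032487), Ptges (ENSMUSG00000050737) and Ptgis (ENSMUSG00000017969) are given with their neighbours.

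**Figure D1:**
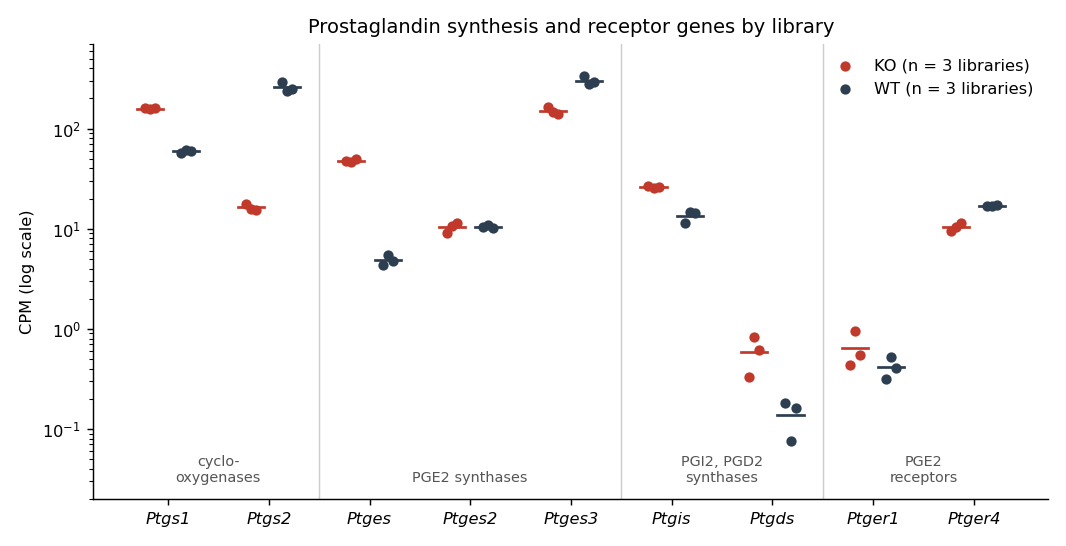
CPM (log scale) of 9 prostaglandin genes in each library, with KO points left of WT points and a bar at the mean of 3 libraries. Ptgs2 sits at 15.5 to 17.5 CPM in KO and 239 to 291 CPM in WT, while Ptges sits at 45.9 to 49.6 CPM in KO, against 4.33 to 5.46 CPM in WT; Ptges2 and Ptger1 overlap between the groups.

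The cyclooxygenases moved in opposite directions. Ptgs2, which encodes COX-2, had 17.5, 15.9 and 15.5 CPM in the KO libraries, against 291, 239 and 247 CPM in the WT libraries. Every KO library was far below every WT library, and WT replicate 1 was the highest. The log2 fold change was -4.07 (SE 0.093), or 16.8-fold lower in KO, and 1.90% of tested genes differed by at least as much in either direction. Ptgs1, which encodes COX-1, had 159, 156 and 160 CPM in KO, against 57.3, 61.3 and 60.3 CPM in WT. Its libraries lay close together within each group, and its log2 fold change was 1.33 (SE 0.0514), or 2.51-fold higher in KO.

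Per kb of exon, a scale on which different genes can be compared, the order of the cyclooxygenases was reversed between the groups. In KO Ptgs1 averaged 40.7 ± 0.582 CPM per kb and Ptgs2 3.55 ± 0.231 CPM per kb, and in WT Ptgs1 averaged 15.3 ± 0.536 and Ptgs2 56.6 ± 6.11 CPM per kb (SD, n = 3). Ptgs2 made up 8.54%, 7.97% and 7.59% of cyclooxygenase transcripts in the KO libraries, against 81.2%, 76.8% and 77.7% in the WT libraries. COX-1 transcripts were thus the majority in each KO library and the minority in each WT library. The sum of both genes was 44.3 ± 0.648 CPM per kb in KO and 71.9 ± 5.58 CPM per kb in WT. The share depends on the length used, and Ptgs2 made up 6.22% in KO and 73.6% in WT when the longest transcript was taken as the length.

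The start regions of both cyclooxygenases and of Ptges are shown to set the letters of Ptgs2 beside those of Ptgs1 and Ptges. Each is 280 bases from RefSeq on GRCm38.p6, with 250 bases before the annotated start and 30 after it, 5′ to 3′ on the gene's strand. Capitals mark the motifs searched on both strands, which were the TATA box (TATAAA), the E-box (CACGTG), the cyclic AMP response element core (CGTCA), the GC box (GGGCGG), the C/EBP motif (TTNNGNAA), the AP-1 motif (TGANTCA) and the NF-kappaB consensus. The windows are chr1:150099781-150100060 on the plus strand for Ptgs2, chr2:36230176-36230455 on the plus strand for Ptgs1 and chr2:30903268-30903547 on the minus strand for Ptges.
Ptgs2: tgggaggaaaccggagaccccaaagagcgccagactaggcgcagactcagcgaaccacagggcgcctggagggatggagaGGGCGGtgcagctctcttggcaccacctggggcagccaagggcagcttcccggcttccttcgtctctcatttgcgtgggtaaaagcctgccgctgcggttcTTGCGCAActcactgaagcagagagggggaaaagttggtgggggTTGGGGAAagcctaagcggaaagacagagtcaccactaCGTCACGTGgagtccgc
Ptgs1: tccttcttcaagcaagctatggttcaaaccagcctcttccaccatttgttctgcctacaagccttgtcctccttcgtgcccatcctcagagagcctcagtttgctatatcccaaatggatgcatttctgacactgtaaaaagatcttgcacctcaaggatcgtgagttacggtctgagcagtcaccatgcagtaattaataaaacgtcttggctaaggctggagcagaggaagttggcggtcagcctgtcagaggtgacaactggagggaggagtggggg
Ptges: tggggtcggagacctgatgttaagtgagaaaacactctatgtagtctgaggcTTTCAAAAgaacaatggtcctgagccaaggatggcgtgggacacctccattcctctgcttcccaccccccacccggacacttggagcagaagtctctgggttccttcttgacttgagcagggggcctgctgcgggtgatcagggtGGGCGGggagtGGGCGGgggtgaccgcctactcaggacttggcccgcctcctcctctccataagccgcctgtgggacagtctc

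In the Ptgs2 window the core CGTCA at 14 to 18 overlaps the E-box CACGTG at 17 to 22, counted from the annotated start, and C/EBP letters lie at -69 to -62 and at -25 to -18, with GGGCGG at -170 to -165. CGTCA was found in 19.9% and CACGTG in 6.79% of 32851 RefSeq windows of the same length, and TTNNGNAA in 39.3%. The Ptges window holds GGGCGG at -53 to -48 and at -42 to -37, letters found in 34.7% of all windows, and TTNNGNAA on the other strand at -198 to -191. None of the searched letters occurs in the Ptgs1 window. TATAAA was found in 13.1%, TGANTCA in 7.46% and the NF-kappaB consensus in 7.94% of all windows, and in none of these 3. GC content was 61.4% for Ptgs2, 49.6% for Ptgs1 and 59.6% for Ptges, beside a median of 52.5%. RefSeq windows were matched for 8 of the 10 genes. A match describes letters, and no match says only that these letters are not in this window.

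Among the prostaglandin E2 synthases, Ptges was high in KO, Ptges3 was low and Ptges2 was near the WT level. Ptges encodes microsomal prostaglandin E synthase-1, the inducible enzyme usually coupled to COX-2. It had 47.5, 45.9 and 49.6 CPM in KO, against 4.33, 5.46 and 4.74 CPM in WT. The groups were well apart, with a log2 fold change of 3.21 (SE 0.0894), or 9.28-fold higher in KO, and 3.40% of tested genes differed by at least as much. Ptges and Ptgs2 therefore differed between the groups in opposite directions.

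Ptges3 encodes cytosolic prostaglandin E synthase, better known as p23, a co-chaperone of HSP90. It had 165, 147 and 140 CPM in KO, against 332, 282 and 291 CPM in WT. All KO libraries were below all WT libraries, and replicate 1 was the highest in both groups. The log2 fold change was -1.08 (SE 0.079), or 2.11-fold lower in KO. Ptges2, which encodes the membrane-associated synthase mPGES-2, had 9.13, 10.6 and 11.4 CPM in KO, against 10.4, 11 and 10.2 CPM in WT. These values overlapped, and the log2 fold change of -0.10 (SE 0.101) was no larger than its error.

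Ptges3 stayed the most abundant of the 3 synthase transcripts per kb, at 67.9 ± 5.78 CPM per kb in KO and 136 ± 11.9 CPM per kb in WT. Ptges averaged 12.1 ± 0.463 CPM per kb in KO, above Ptges2 at 2.05 ± 0.229, whereas in WT it averaged 1.23 ± 0.145, below Ptges2 at 2.08 ± 0.0789 (SD, n = 3). Ptges thus accounted for 13.7%, 14.6% and 16.2% of prostaglandin E2 synthase transcripts in the KO libraries and for 0.722%, 1.06% and 0.899% in the WT libraries. Without division by length its mean share was 22.9% in KO and 1.54% in WT.

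**Figure D2:**
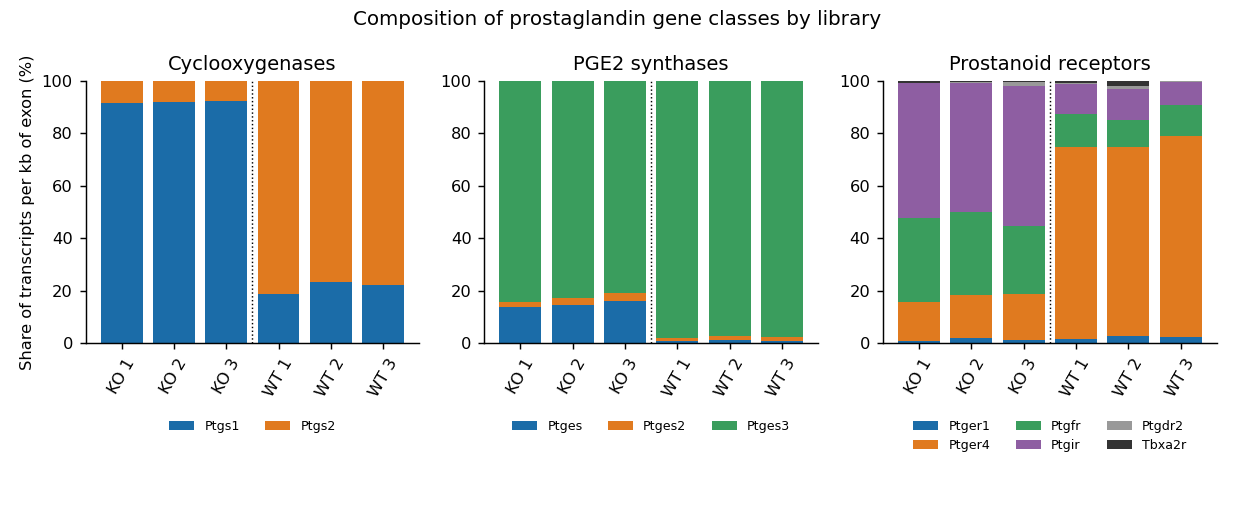
Share (%) of transcripts per kb of exon within the cyclooxygenases, the prostaglandin E2 synthases and the measured prostanoid receptors, 1 stacked bar per library with KO left of WT. Ptgs2 makes up 8.03% of cyclooxygenase transcripts in KO, against 78.5% in WT; Ptges reaches 14.8% of synthase transcripts in KO, against 0.894% in WT; Ptgir makes up 51.4% of receptor transcripts in KO and Ptger4 74.0% in WT (means of 3 libraries).

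The prostacyclin branch was higher in KO. Ptgis, which encodes the cytochrome P450 that makes prostacyclin, had 26.8, 25.3 and 26.0 CPM in KO, against 11.5, 14.6 and 14.2 CPM in WT. WT replicate 1 was the lowest library, and the groups did not overlap. Its log2 fold change was 0.87 (SE 0.0908), or 1.83-fold higher in KO. In GENCODE M21 6.08% of its exonic sequence is overlapped by an antisense gene model. The strand setting of the counting is not given in the sources used here, so such reads cannot be told apart. For Ptgs1 that share is 3.81%, and for Ptgs2, Ptges, Ptges2 and Ptges3 it is 0%.

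Ptgds, the lipocalin-type prostaglandin D2 synthase, had only 9, 22 and 16 counts in KO, against 4, 2 and 4 counts in WT. Each KO library had more counts than each WT library, and the ratio of summed counts per total was 4.33 (exact 95% interval 2.16 to 9.62, counting error only). At this depth the gene lay below the low-count filter and was not tested.

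Ptger4 and Ptger1, the prostaglandin E2 receptors with a count row, were low in both groups. No count row was matched for Ptger2 or Ptger3. Ptger4, which encodes EP4, a receptor that raises cyclic AMP, had 9.42, 10.5 and 11.3 CPM in KO, against 16.8, 16.8 and 17.1 CPM in WT. The WT libraries were almost equal and all above the KO libraries, and the log2 fold change was -0.78 (SE 0.0863), or 1.71-fold lower in KO. On the annotation 16.5% of the exonic sequence of Ptger4 lies opposite Ttc33 and another gene model. Ptger1, which encodes the calcium-mobilizing EP1, had 0.440, 0.943 and 0.543 CPM in KO, against 0.316, 0.527 and 0.406 CPM in WT. These traces overlapped, with a log2 fold change of 0.52 (SE 0.373). Ptger4 made up 93.1 ± 2.55% of the EP1 and EP4 transcripts per kb in KO and 97.1 ± 0.730% in WT.

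Ordered per kb, the KO libraries had Ptges3 first, then Ptgs1, Ptges, Ptgis, Ptgs2, Ptges2, Ptger4, Ptgds and Ptger1. The WT libraries had Ptges3 first, then Ptgs2, Ptgs1, Ptgis, Ptger4, Ptges2, Ptges, Ptgds and Ptger1. With exonic length as the scale, neighbours in these orders did not overlap in their library values, except Ptgds and Ptger1 in WT. The orders depend on the length used. In KO Ptges2 and Ptger4 both averaged 10.4 CPM, and the longest transcript is 4978 bases for Ptges2 and 3771 for Ptger4. With that length Ptger4 would come before Ptges2 in KO.

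Around these 10 genes, 9 lists of 125 genes in all were drawn up by role, of which 90 were tested, 46 called higher and 28 lower in KO. That is beside 37.7% higher and 37.5% lower among all tested genes.

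Both tested receptors for other prostanoids were higher in KO. Ptgir, the prostacyclin receptor, had 16.2, 15.5 and 17.0 CPM in KO, against 1.31, 1.39 and 0.973 CPM in WT. The log2 fold change was 3.65 (SE 0.133, edgeR adjusted p = 4.4e-09), or 12.5-fold. Ptgfr, the prostaglandin F2alpha receptor, had 20.3, 20.1 and 16.9 CPM in KO, against 2.98, 2.45 and 2.68 CPM in WT (log2 fold change 2.75, SE 0.116, edgeR adjusted p = 1.1e-08). Neither receptor's groups overlapped. With Ptger1, Ptger4, Ptgdr2 and Tbxa2r, a set put together after the values were seen, the measured receptor transcripts summed to 9.48 ± 0.0803 CPM per kb in KO and 3.43 ± 0.0794 CPM per kb in WT. Ptger4 made up 16.5 ± 1.36% of that sum in KO and 74.0 ± 2.49% in WT, and Ptgir made up 51.4 ± 2.11% in KO and 10.7 ± 1.71% in WT. With the longest transcript as length Ptger4 made up 25.5% in KO and 83.0% in WT. Ptgdr2, a prostaglandin D2 receptor, had 13 counts in KO and 5 in WT, and the thromboxane receptor Tbxa2r had 7 in KO and 4 in WT. Both were too low to test, and no count row was matched for Ptger3 or for Ptgdr, another prostaglandin D2 receptor.

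Of 5 tested synthases and reductases outside the set, 2 rose and 3 fell (median log2 fold change -0.27). Akr1b3, an aldose reductase with prostaglandin F synthase activity, averaged 83.2 ± 3.75 CPM in KO and 271 ± 9.48 CPM in WT (log2 fold change -1.78). Akr1c18, whose product inactivates progesterone, averaged 1.00 ± 0.293 CPM in KO and 7.84 ± 0.596 CPM in WT (-3.03). Akr1b8 was also lower (-0.27). Ptges3l, a relative of Ptges3, was higher (1.22), and 28.7% of its exonic sequence is shared with a gene on the same strand. Hpgds, the prostaglandin D2 synthase of mast cells and macrophages, had 3 counts in KO and 8 in WT.

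Transport and breakdown genes were split, with 3 of 6 tested genes higher, 2 lower and 1 not called (median 0.25). No count row was matched for the breakdown gene Hpgd, also on this list, so it was not analysed. Slco2a1, the prostaglandin uptake transporter, had 23.7, 23.1 and 23.0 CPM in KO, against 81.1, 85.9 and 83.5 CPM in WT. Its log2 fold change was -1.92 (SE 0.0535, edgeR adjusted p = 8.6e-10). Abcc4, which encodes the exporter MRP4, went the other way, with 20.4, 19.8 and 21.3 CPM in KO, against 8.57, 7.72 and 8.84 CPM in WT (log2 fold change 1.22, SE 0.0831, edgeR adjusted p = 3.2e-07). Among the prostaglandin reductases Ptgr2 (0.56), with 32.0% of its exonic sequence overlapped by an antisense gene model, and Zadh2 (0.53) were higher, while Ptgr1 averaged 50.4 ± 0.473 CPM in KO and 48.7 ± 0.477 CPM in WT (-0.03) and was not called. The CPM of Ptgr1 did not overlap between groups, but CPM use library totals and the log2 fold change uses TMM normalization, so the signs differ.

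**Figure D3:**
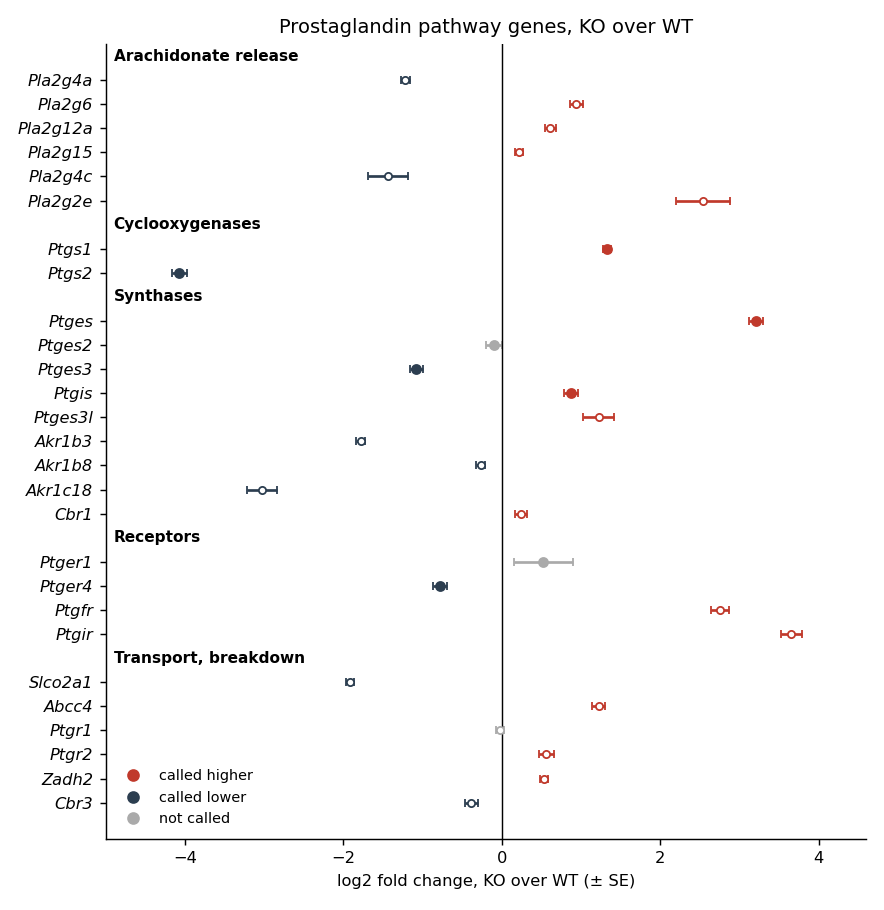
Log2 fold change, KO over WT (± SE), of a selection of tested prostaglandin pathway genes, made after values were seen, from arachidonate release to breakdown, with filled points for the set described here and open points for other genes. Among the genes drawn, Ptgs2 is farthest to the left at -4.07, and Ptgir (3.65) and Ptges (3.21) are farthest to the right; Mgll (7.16) is not drawn.

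Among 15 tested genes of arachidonate release and re-esterification, 7 rose, 4 fell and 4 were not called (median 0.22). Pla2g4a, the cytosolic phospholipase A2 that releases arachidonic acid, had 48.9, 49.2 and 44.0 CPM in KO, against 104, 106 and 105 CPM in WT. Its log2 fold change was -1.22 (SE 0.0564, edgeR adjusted p = 1.9e-08), with no overlap between groups. The calcium-independent Pla2g6 (0.94), the secreted Pla2g12a (0.61) and the acyltransferase Lpcat3 (0.90) were higher in KO. Pla2g16 (0.23), Plaa (0.11), Acsl4 (0.07) and Anxa1 (0.08) were not called. Mgll, the monoglyceride lipase, had 57 counts in KO and 0 in WT, at least 17.5-fold higher with a floor of 3 counts over the group; it was chosen after its value was seen. The list's median is the same with Mgll at that bound.

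In the lipoxygenase and leukotriene list 4 of 11 genes with counts passed the filter, 3 called higher and 1 lower (median 0.95), and most of its level came from Lta4h, which averaged 82.9 ± 1.91 CPM in KO against 65.1 ± 2.42 CPM in WT. Alox5ap (1.63), Ltc4s (2.66) and Lta4h (0.27), which serve leukotriene synthesis, were higher in KO, but Alox5, the lipoxygenase they work with, was below the filter. Alox8 was lower (-2.03), with 0.554 ± 0.0920 CPM in KO and 2.19 ± 1.34 CPM in WT. Antisense gene models overlap 26.4% of the exonic sequence of Ltc4s and 13.3% of that of Alox5ap.

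The list of Ptgs2 inducers and transcription factors had 11 of 18 tested genes called higher in KO, 3 lower and 4 not called. Its median was 0.42, and among all tested genes 37.7% were higher and 37.5% lower. The list also counts inhibitors of NF-kappaB, with Nfkbia among the higher genes and Tnfaip3 (-0.95) among the lower. Tnfaip3 was picked for mention after its value was seen. Il1r1, the interleukin-1 receptor, averaged 16.8 ± 2.43 CPM in KO and 4.18 ± 0.438 CPM in WT (log2 fold change 1.93, edgeR adjusted p = 2.8e-07). Nfkbia, the NF-kappaB inhibitor, was higher (1.22), as was Nfatc1 (1.04). Fosl1, an AP-1 subunit, averaged 6.79 ± 0.499 CPM in KO and 29.6 ± 4.05 CPM in WT (log2 fold change -2.20, edgeR adjusted p = 4e-08), with 57.2% of its exonic sequence opposite another gene. Rela (-0.02), Creb1 (0.06), Tlr4 (0.15) and Fos (0.20) were not called, and Il1a and Il6 were too low to test.

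Factors known to act on AU-rich messages such as that of Ptgs2, directly or through another factor, went both ways. Of 11 genes, 4 were higher, 5 lower and 2 not called (median -0.03). The decay factors Zfp36 and Zfp36l1 were higher, at 48.6 ± 2.42 and 152 ± 15.2 CPM in KO, against 24.6 ± 1.01 and 71.4 ± 4.37 CPM in WT (log2 fold changes 0.90 and 1.02), although 55.9% of the exonic sequence of Zfp36l1 lies opposite another gene. Hnrnpd, which encodes AUF1, was lower, averaging 118 ± 5.21 CPM in KO against 329 ± 14.8 CPM in WT (-1.56). Mapkapk2, the kinase that acts on Zfp36 protein, was also lower (-1.12). Zfp36l2 (-0.03) and Khsrp (0.11) were not called.

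Of 16 tested genes of the cyclic AMP machinery that EP4 uses, 9 rose, 5 fell and 2 were not called (median 0.30). Pde4b, a phosphodiesterase that degrades cyclic AMP, averaged 4.44 ± 0.376 CPM in KO and 18.1 ± 1.61 CPM in WT (-2.10). Prkacb, a catalytic subunit of protein kinase A, was higher (1.00), Prkar2a, a regulatory subunit, was lower (-1.20), and the arrestin Arrb1 was higher (1.27). Prkar2b (-0.09) and Arrb2 (-0.05) were not called. Genes induced through cyclic AMP showed no common direction, with 5 of 13 higher, 5 lower and 3 not called (median -0.06). The nuclear receptor genes Nr4a1 (-3.08) and Nr4a2 (-1.05) were lower and the kinase gene Sik1 was higher (1.11). Areg, which encodes amphiregulin, had 1 count in KO and 81 in WT, a ratio of 87.8 WT over KO (exact 95% interval 15.3 to 3512, counting error only). Crem (-0.06), Fosb (-0.09) and Fosl2 (0.10) were not called.

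**Figure D4:**
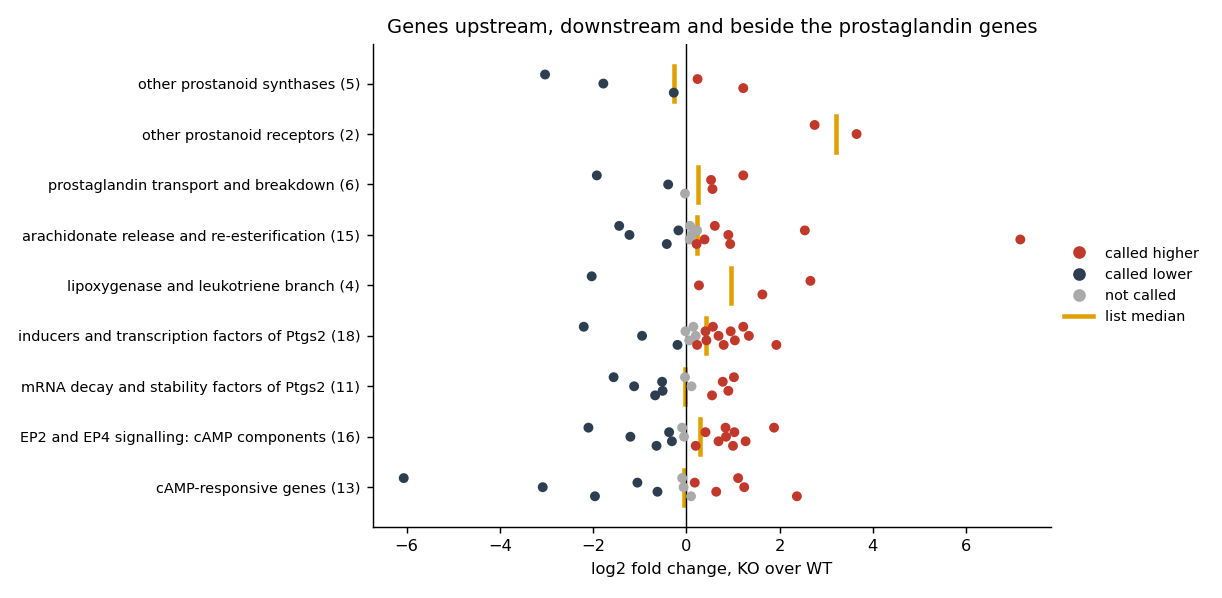
Log2 fold change, KO over WT, of each tested gene in 9 lists around the prostaglandin genes, with the number tested in parentheses and a bar at the list median. Points lie on both sides of 0 in every list except that of the other receptors; the points at 7.16 (Mgll) and -6.06 (Areg) are genes with at most 1 count in 1 group, and their fitted values depend on the prior count.

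Ptgs2 lies on chromosome 1 at 150100031 to 150108227 of GRCm38, on the plus strand, and its nearest tested protein-coding neighbour on the low side is Pla2g4a, described above, 139 kb away. Ptgs2os, a noncoding transcript that starts on the opposite strand at -0.1 kb from the start of Ptgs2 and shares no exonic sequence with it, had 0.953, 1.13 and 0.970 CPM in KO, against 4.56, 3.80 and 4.10 CPM in WT. Its log2 fold change was -2.10 (SE 0.168, edgeR adjusted p = 1.1e-06). Ptgs2os2, another noncoding gene, whose start lies 64.9 kb downstream of that of Ptgs2, had 4.03, 3.51 and 4.11 CPM in KO, against 15.0, 11.5 and 13.3 CPM in WT (log2 fold change -1.85, SE 0.127, edgeR adjusted p = 3.3e-07). For both, all KO libraries were below all WT libraries, and both were chosen after their values were seen. Of 6 tested genes within 500 kb of the Ptgs2 start, a window also set after the values were seen, 5 were lower and 1, Odr4 (0.74), was higher, beside 37.5% lower and 37.7% higher among all tested genes. Among the 5 is Rbm3-ps (-0.61), named after its value was seen, a pseudogene of Rbm3 (-0.67) on chromosome X. How multiply aligned reads were counted is not known, so reads of both may be mixed.

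The minus-strand gene Ptges spans 30889471 to 30929863 of chromosome 2, and its start in RefSeq is inside that GENCODE span. Its nearest tested protein-coding neighbours were Prrx2, a homeobox gene with 67 counts in KO and 1 in WT (ratio 61.8 KO over WT, exact 95% interval 10.7 to 2476, counting error only), and Tor1b, which was not called (0.03). Of 15 tested genes within 500 kb, 10 were higher, 3 lower and 2 not called, beside the same 37.7% and 37.5%. Ptgis, a minus-strand gene spanning 167191805 to 167240604 of chromosome 2, had Znfx1 (0.30) and B4galt5 (0.63) as neighbours, both higher, and among 18 tested genes within 500 kb 5 were higher, 7 lower and 6 not called.

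**Figure D5:**
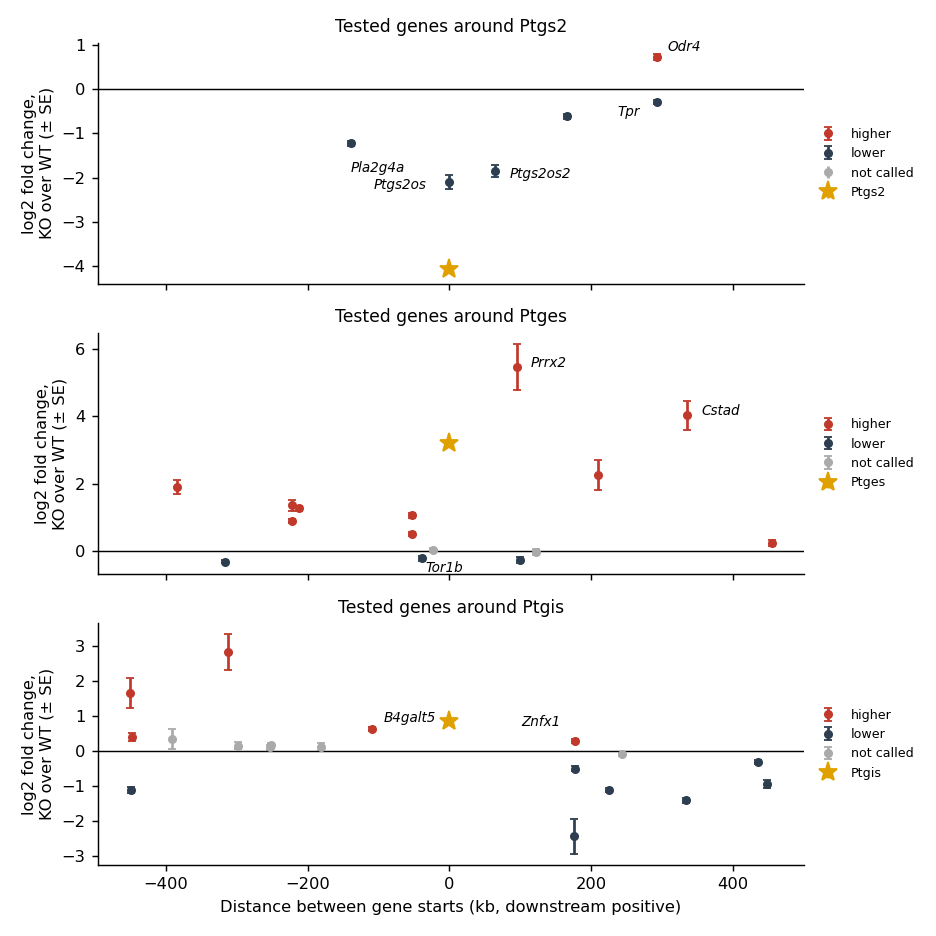
Log2 fold change, KO over WT (± SE), of tested genes against the distance of their start from that of Ptgs2, Ptges or Ptgis (kb, downstream of the gene positive), with the gene itself as a star. Ptgs2os, Ptgs2os2 and Pla2g4a next to Ptgs2 lie between -2.10 and -1.22, and those around Ptges and Ptgis lie on both sides of 0; Prrx2 had 1 count in WT, so its fitted value depends on the prior count.

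Among tested protein-coding genes, the patterns most like Ptgs2 over the 6 libraries were those of Ulbp1 (0.132), Ccdc69 (0.136) and Ddit4l (0.152). Likeness was the root-mean-square difference of log2 CPM centred on each gene's mean. Ulbp1 had 22.3, 19.7 and 18.2 CPM in KO, against 284, 253 and 274 CPM in WT, whereas Ccdc69 and Ddit4l had 0 counts in KO and were at least 26.4-fold and 35.1-fold lower, so their likeness rests on the prior count of 2. For Ptges the nearest were Ociad2 (0.0663), Ralgds (0.0705) and Tcn2 (0.0724), with 8.95-fold to 9.62-fold higher levels in KO.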

How the data were processed

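Polyadenylated RNA of 3 Lap2alpha KO and 3 WT libraries of a mouse dermal fibroblast line was sequenced with a directional kit, per the labels' protocols. The authors deposited raw counts per Ensembl gene, 1 table per library, and the submitters' processing notes name STAR 2.7.10b and GRCm38. No source used here gives the counting program, its annotation, its strand setting or how multiply aligned reads were treated. The tables share 28293 genes, and 28230 were found in GENCODE M21, which gave symbols, positions and exonic lengths.

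The KO over WT contrast was fitted with edgeR 4.0.16 (R 4.3.3), TMM normalization, filterByExpr, the quasi-likelihood test and Benjamini-Hochberg adjustment over 15081 genes, without a block. SE is the log2 fold change divided by the square root of the F statistic. CPM are raw counts per 1000000 of the library total, without TMM. A small CPM difference and its log2 fold change can therefore differ in sign. The fit was tested on simulated data, where small changes were often missed, moderate ones sometimes, and false calls exceeded their nominal share. Far fewer genes were changed in the simulation than were called in these data, so that share does not carry over to them. Alternatives were other scalings, filters and tests (DESeq2 1.42.0, limma 3.58.1), a replicate block, other lengths and leaving out each library. Genes named were all 10 of the set, Tmpo, the 4 smallest p-values and all genes not called in each list, the nearest tested coding neighbours and the 3 most similar patterns, with others said to be chosen after their values were seen. Ptger3, Ptgdr and Hpgd are named because no count row was matched for them. The set and the lists were chosen with earlier results of these data known. Figures were drawn with matplotlib 3.10.9.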

Additional observations from a re-analysis of the deposited data

How the results depend on the processing

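Under 14 alternatives (other scalings, filters and tests, the replicate block and each library left out), the called genes of the set kept 3 lower calls, with log2 fold changes of -4.13 to -3.99 for Ptgs2, -1.14 to -1.0 for Ptges3 and -0.85 to -0.70 for Ptger4, and the higher genes ranged from 3.12 to 3.32 for Ptges, 1.28 to 1.41 for Ptgs1 and 0.76 to 0.95 for Ptgis. Ptgds entered the test only with no low-count filter and when KO replicate 1 or any WT replicate was left out. It was then called higher (1.69 to 2.30). With a library left out it passed the filter through its KO counts. It had 0.830 and 0.621 CPM in KO replicates 2 and 3 and at most 0.181 CPM in WT. The set was chosen on this contrast, so nothing is read from these calls. Of the named genes outside the set, 13 values crossed to a call under another setting (Anxa1, Fosl2, Khsrp, Pla2g16 and Plaa under upper-quartile scaling and library totals alone, Plaa and Fos under the replicate block, and Fos without KO replicate 1), and none changed direction with a call.

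Shares of transcripts depend on length by construction. Ptgs2 made up 9.34% of cyclooxygenase counts in KO and 81.2% in WT with no division by length, and 6.22% in KO and 73.6% in WT with the longest transcript as length. Ptges made up 22.9% of synthase counts in KO and 1.54% in WT with no division. Ptger4 made up 98.1% of EP1 and EP4 transcripts in WT with the longest transcript, and of all measured receptors 22.3% in KO and 79.1% in WT with no division and 25.5% in KO and 83.0% in WT with the longest transcript.

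Whether replicate numbers pair the samples was not settled. Deviations of same-numbered KO and WT libraries from their group means correlated at 0.147, -0.115 and 0.159. Some pairs of unlike number correlated more (KO replicate 3 with WT replicate 2 at 0.268, KO replicate 2 with WT replicate 1 at 0.202). Deviations from a mean of 3 libraries are tied to each other, so these correlations cannot exclude pairing. With the replicate block 5832 genes were called higher and 5865 lower, beside 5678 and 5652 without it, and the set had 3 higher and 3 lower. The SE of Ptgs2 was 0.0539 with the block and 0.093 without it, and that of Ptges3 was 0.0431 and 0.079. Counts per gene limit Ptgds and Ptger1, and protein or prostaglandin levels were not measured.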
